A study of Mus musculus with 2 samples.

Results

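The cartilage collagens are 8 genes that encode chains of collagens II, IX, X, XI and XXVII. Col2a1 encodes the single chain of collagen II, Col9a1, Col9a2 and Col9a3 the 3 chains of collagen IX, Col11a1 and Col11a2 chains of collagen XI, Col10a1 the chain of collagen X and Col27a1 that of collagen XXVII. They were chosen by name and all 8 were found once in the feature tables, among 56953 genes. The data are single-cell RNA libraries of tissue labelled olfactory epithelium from 2 male wildtype C57BL/6J mice, with 1 library for each mouse. The sources used here give no age, and neither a treatment nor a second genotype was compared, so both animals form 1 group. The members were therefore described across groups of cells within the 2 libraries. Cells had been freed from the dissected tissue by enzymes at 37 °C, sieved at 40 µm and cleared of erythrocytes by lysis. Counts were taken as unique molecular identifiers (UMIs), which stand for captured RNA molecules, and levels are UMIs per 1000000 UMIs (CPM) of all cells of a group in 1 mouse, added up.

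Hyaline cartilage owes its tensile strength to thin fibrils in which collagen II is the main component. Collagen XI lies inside those fibrils and helps to start and limit their growth, and collagen IX, which interrupts its triple helix several times, sits on their surface and links them to the surrounding matrix. Collagen X is a short-chain, network-forming collagen made by hypertrophic chondrocytes, the enlarged cells that precede mineralization, and collagen XXVII is a fibrillar collagen of cartilage with a shortened helix. In the nose these proteins are known from the septum and the cartilage capsule that carries the olfactory lining.

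Promoter sequences could be set beside the levels for 6 members, taken from RefSeq (GRCm38.p6, an older build than the GRCm39 genome named in the submitters' processing notes). Each runs from 250 bases before to 50 bases after a start of transcription, 300 in all. The 7 windows of these 6 genes, Col9a1 having 2 starts, were searched on both strands for 3 kinds of motif: ACAATG or ACAAAG, letters bound by SOX factors, TGTGGT or TGCGGT, bound by RUNX factors, and TATAAA, the TATA box. No motif overlaps another. Among all 32851 RefSeq promoters of the same length, 28.6% held one of the SOX words, 22.4% a RUNX word and 13.6% the TATA word. The promoters shown are those of Col10a1, whose pattern stood apart from the other members, of Col11a2, of both starts of Col9a1, whose level parted from its partner chains, and of Col9a2, one of those partners. Capitals mark the motif matches, and each sequence is on the plus strand, 5′ to 3′.
Col10a1, chr10:34389731-34390030: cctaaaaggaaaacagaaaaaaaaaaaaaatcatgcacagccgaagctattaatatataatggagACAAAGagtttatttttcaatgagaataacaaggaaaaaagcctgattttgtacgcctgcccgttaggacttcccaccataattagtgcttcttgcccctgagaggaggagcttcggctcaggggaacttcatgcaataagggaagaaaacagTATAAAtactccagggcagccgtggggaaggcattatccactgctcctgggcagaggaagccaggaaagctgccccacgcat
Col11a2, chr17:34038888-34039187: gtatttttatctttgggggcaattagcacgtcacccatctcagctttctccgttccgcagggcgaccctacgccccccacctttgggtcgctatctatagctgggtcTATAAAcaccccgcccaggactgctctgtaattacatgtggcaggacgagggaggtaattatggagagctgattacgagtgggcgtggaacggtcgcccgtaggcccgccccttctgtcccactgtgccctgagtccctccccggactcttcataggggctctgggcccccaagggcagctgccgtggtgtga
Col9a1, first start, chr1:24177360-24177659: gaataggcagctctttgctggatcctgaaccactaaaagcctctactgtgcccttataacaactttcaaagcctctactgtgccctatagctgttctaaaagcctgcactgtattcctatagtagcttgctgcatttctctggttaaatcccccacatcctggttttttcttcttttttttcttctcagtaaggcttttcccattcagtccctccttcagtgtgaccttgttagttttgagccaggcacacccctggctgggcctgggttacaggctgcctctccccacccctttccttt
Col9a1, second start, chr1:24194953-24195252: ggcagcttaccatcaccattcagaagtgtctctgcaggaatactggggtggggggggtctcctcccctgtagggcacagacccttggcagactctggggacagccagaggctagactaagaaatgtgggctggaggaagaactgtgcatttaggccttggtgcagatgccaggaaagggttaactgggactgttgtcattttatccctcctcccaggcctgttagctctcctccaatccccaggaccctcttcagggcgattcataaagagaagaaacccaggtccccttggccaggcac
Col9a2, chr4:121039316-121039615: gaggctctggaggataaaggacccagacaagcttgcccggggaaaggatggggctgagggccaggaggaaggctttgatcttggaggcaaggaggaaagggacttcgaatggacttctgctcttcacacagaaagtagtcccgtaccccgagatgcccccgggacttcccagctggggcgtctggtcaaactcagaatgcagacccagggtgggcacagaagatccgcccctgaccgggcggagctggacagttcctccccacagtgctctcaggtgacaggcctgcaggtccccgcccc
The Col10a1 window held ACAAAG with its first base at -185 from the start and TATAAA at -32. The Col11a2 window held TATAAA at -143. No motif searched was found in the windows of Col9a1, Col9a2, Col11a1 and Col27a1, which says only that these letters are not in these windows. Their share of G and C ran from 44.3% for Col10a1 and 47.3% and 55.7% for the first and second start of Col9a1 to 61.7% for Col9a2 and Col27a1 and 62.3% for Col11a1, beside 53.8% over all promoters. Gene counts do not tell the 2 starts of Col9a1 apart. Col2a1 and Col9a3 had no entry.

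Cells were the barcodes with at least 1000 UMIs, 300 genes and at most 15% mitochondrial UMIs after removal of likely doublets, 12537 in mouse 1 and 8930 in mouse 2, with medians of 3884 and 5241 UMIs. A total of 3 UMIs, the limit that a count of 0 allows, is 0.0454 and 0.0476 CPM over all cells of a mouse. They fell into 31 clusters, made without the members, without any other collagen gene and without the gene lists used here. Classes were named from marker lists, and any difference from the study's own cell types may come from these rebuilt names. The labelled tissue was not seen in its defining neurons: 5 markers of mature olfactory neurons summed to 3.30 and 4.06 CPM in cells, beside 4.21 and 4.51 CPM in free RNA, and 0 and 1 cells had a UMI of at least 3 of them. The 2 libraries shared 387 barcodes among these cells, of which 47.3% fell in the same class in both mice, whereas the class shares alone would give 27.5%. The comparison with fibroblast-like cells and those among chondrocyte-like clusters were repeated without these barcodes, and member differences whose call changed are given with both values.

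The chondrocyte-like class (Acan, Hapln1, Snorc, Cytl1 and Cnmd as markers) held clusters 3, 5, 6, 8 and 12, with 4737 of the cells of mouse 1 (37.8%) and 2727 of mouse 2 (30.5%). Among the 14 named classes, each of the 8 members had its highest level there in both mice. This class held between 84.1% and 97.7% of all UMIs of a member in cells. Together the 8 genes made up between 0.637% and 2.03% of the UMIs of a chondrocyte-like cluster, and 0.0303% and 0.0189% of those of macrophage-like cells.

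Free RNA sets a floor for these genes, since they are abundant in the barcodes of at most 50 UMIs that hold no cell: Col2a1 stood at 3533 and 3225 CPM there. Macrophage-like, T or NK-like, neutrophil-like and B-like cells, which should lack cartilage collagens, gave the background level within cells (406 and 274 cells). Col2a1 had 148 CPM in them in mouse 1 (95% Poisson interval 129 to 168) and 104 in mouse 2 (87.2 to 123). Summed over the 8 members, the level in these immune cells was 4.66% and 3.36% of that in free RNA. Intervals cover counting error only.

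Col2a1 stood at 5592 CPM in chondrocyte-like cells of mouse 1 and 5585 in mouse 2, a mean of 5589 ± 5.07 (SD, n = 2). These near-equal sums do not mean that the mice were alike within clusters. Col2a1 was lower in mouse 1 in clusters 3, 5, 6 and 8, with 2087 against 3877 CPM in cluster 6, and higher in cluster 12. The mix of clusters also differed, as cluster 5, the highest in Col2a1, held 1710 cells of mouse 1 and 104 of mouse 2. Fibroblast-like cells had 165 and 97.1 CPM of it, and tenocyte-like cells (cluster 9) 1223 and 1599. The chondrocyte-like values lay far above both, and the fibroblast-like values lay about the immune background of each mouse. Of the chondrocyte-like cells, 91.7% and 93.3% had at least 1 Col2a1 UMI, and 76.4% and 74.0% after every cell was thinned to 1000 UMIs. The shares in the immune cells were 38.7% and 34.3% unthinned (median depth 3228 and 3748 UMIs) and 16.8% and 12.8% thinned.

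The chains of collagen IX followed. Col9a1 stood at 441 and 426 CPM in chondrocyte-like cells and at 15.8 and 12.4 in fibroblast-like cells. Col9a2 stood at 961 and 1005 against 33.5 and 19.3, and Col9a3 at 845 and 885 against 31.9 and 18.4. In each case both mice gave close levels in the chondrocyte-like cells added up as a class. All 3 chains were seen together in 57.7% and 69.2% of chondrocyte-like cells, and in 10.9% and 9.79% once each cell was thinned to 1000 UMIs.

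Of the collagen XI chains, Col11a1 stood at 1597 and 1556 CPM in chondrocyte-like cells and at 58.8 and 45.8 in fibroblast-like cells. Col11a2 stood at 1247 and 1138 against 41.9 and 29.1. Col27a1 stood at 1211 and 1086 against 50.6 and 32.8, and Col10a1 at 251 and 336 against 9.07 and 5.51. Col10a1 was the member found in the fewest chondrocyte-like cells, 16.5% and 22.1% of them, or 8.13% and 9.28% after thinning, beside 3.20% and 2.92% of immune cells unthinned and 1.48% and 0.365% thinned. A median of 7 of the 8 members was detected per chondrocyte-like cell in each mouse, and of 4 after thinning.

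**Figure D1:**
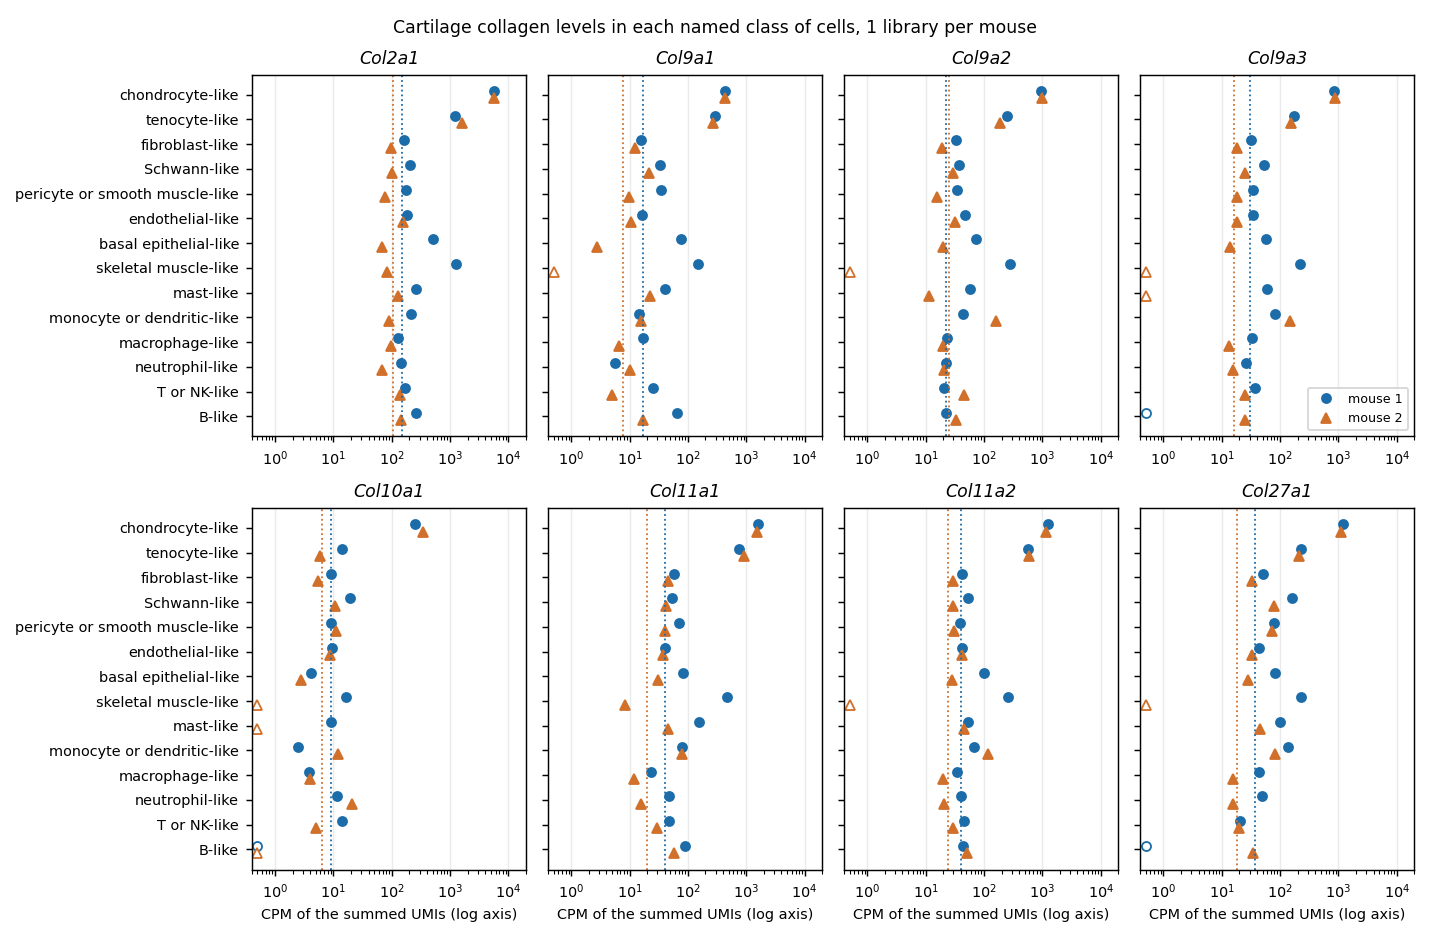
Level of each cartilage collagen in the 14 named classes, in CPM on a log axis; circles are mouse 1, triangles mouse 2, open symbols at the left edge are values of 0, and dotted lines give each mouse's level in immune cells. Col2a1 is at 5592 and 5585 CPM in chondrocyte-like cells of both mice, tenocyte-like cells come next by the mean of the mice for 7 of the members but not for Col10a1, and skeletal muscle-like cells part by mouse.

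Sums per mouse and class were compared in edgeR (quasi-likelihood F test, mouse as a block), and p-values were adjusted by Benjamini and Hochberg over the 6588 tested genes held out of clustering. Chondrocyte-like cells had more of all 8 members than fibroblast-like cells, where 14.6% of all tested genes were called higher. The log2 difference ran from 5.10 ± 0.66 (SE) for Col27a1 (edgeR, adjusted p = 4.22e-07) to 5.79 ± 0.75 for Col2a1 (edgeR, adjusted p = 3.85e-07), with n = 2 mice. The smallest adjusted p in edgeR was that of Col10a1, 2.20e-10, with a log2 difference of 5.63 ± 0.46. Both mice showed each difference. Since the libraries are those of 2 animals and every class of a mouse comes from 1 suspension, the p-values measure the spread of classes between these 2 libraries. Without either mouse every difference stayed positive, and without mouse 2 those of Col9a3 and Col10a1 were 4.69 and 4.65.

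The same test was made against the other 11 named classes in the fit. All 8 members were higher in chondrocyte-like cells than in endothelial-like, pericyte or smooth muscle-like, Schwann-like, basal epithelial-like, skeletal muscle-like, mast-like, monocyte or dendritic-like, macrophage-like, neutrophil-like and T or NK-like cells. Of all tested genes, the share called higher was 14.9% against endothelial-like, 12.4% against pericyte or smooth muscle-like, 11.8% against Schwann-like, 13.4% against basal epithelial-like and 11.5% against skeletal muscle-like cells. It was 12.2% against mast-like, 17.3% against monocyte or dendritic-like, 19.8% against macrophage-like, 20.5% against neutrophil-like and 19.2% against T or NK-like cells. Against tenocyte-like cells 5 of the 8 were called, with 11.4% of all genes called higher. These were Col2a1 (log2 difference 2.34 ± 0.64), Col9a2 (2.62 ± 0.68), Col9a3 (2.86 ± 0.62), Col10a1 (5.44 ± 0.48) and Col27a1 (2.80 ± 0.60). Col9a1 (1.05 ± 0.53; edgeR, adjusted p = 0.17), Col11a1 (1.28 ± 0.62; 0.15) and Col11a2 (1.43 ± 0.59; 0.089) missed the threshold of 0.05.

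By the mean of the mice, the tenocyte-like cluster thus carried the members at levels between cartilage and the other named classes, Col10a1 apart. In mouse 1 alone skeletal muscle-like cells had more Col2a1 (1277 against 1223 CPM), Col9a2 (279 against 247) and Col9a3 (220.0 against 175) and as much Col27a1 (227 in both). The tenocyte-like cluster was named from Tnmd, Scx, Mkx, Thbs4 and Kera, markers of tendon and ligament cells. With both mice added up it also held chondrocyte markers: Acan at 262 CPM and Cnmd at 573. Acan also stood at 294 CPM in skeletal muscle-like and at 262 in monocyte or dendritic-like cells, and Cnmd at 235 and 124. In the tenocyte-like cluster Col11a1 stood at 766 CPM in mouse 1 and 922 in mouse 2, and Col11a2 at 577 and 589. Col9a1 stood at 296 and 268, Col9a2 at 247 and 190 and Col9a3 at 175 and 151. Col27a1 stood at 227 and 211. Col10a1, at 14.1 and 5.95 CPM, lay within the counting interval of the immune cells in both mice. Of tenocyte-like cells thinned to 1000 UMIs, 33.8% and 36.1% had a UMI of Col11a1, beside 4.43% and 3.28% of immune cells. That share was the highest of the members. For Col2a1 it was 26.3% and 27.6%, beside 16.8% and 12.8% of immune cells, and for Col9a3 9.22% and 10.8%, beside 3.45% and 1.83%. Unthinned, 45.4% and 52.4% of tenocyte-like cells had a Col2a1 UMI, beside 38.7% and 34.3% of immune cells.

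Each cluster was also set against the 3 immune clusters (macrophage-like, T or NK-like and neutrophil-like) in a fit over 25 clusters, a contrast chosen after the levels had been seen. In cluster 9 all members but Col10a1 were called higher, where 25.4% of the 8004 tested genes were: the largest difference was that of Col11a1, 4.57 ± 0.45 on the log2 scale (edgeR, adjusted p = 6.5e-11). Col10a1 had -0.14 ± 0.57.

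Col11a1 was also raised in unnamed cluster 21, whose leading genes include Lrrc15, Igfbp3, Postn and Ptch1 and which had part of the chondrocyte and tenocyte marker lists. Of the 5 chondrocyte markers, Acan (150 CPM, against 52.6 in fibroblast-like cluster 1) and Hapln1 (49.5 against 23.1) were at a higher level there, and Snorc (69.3 against 97.1), Cytl1 (229 against 372) and Cnmd (27.5 against 69.7) at a lower one. Of the tenocyte markers, Tnmd (521 CPM) and Mkx (58.3) stood above tenocyte-like cluster 9 (389 and 37.4), and Scx (4.40), Thbs4 (164) and Kera (37.4) below it (41.4, 1522 and 256). Col11a1 stood there at 345 CPM in mouse 1 (interval 290 to 408) and 552 in mouse 2 (489 to 622), in 72 and 89 cells. The log2 difference from immune clusters was 3.52 ± 0.47 (edgeR, adjusted p = 1.22e-07), with 18.9% of genes called higher there. Its partner chain did not go with it: Col11a2 stood at 22.2 and 29.8 CPM in cluster 21, and Col2a1 at 108 and 63.6, both near background. Unnamed cluster 4 had Col11a1 at 130 and 122 CPM, a log2 difference of 2.08 ± 0.47 (edgeR, adjusted p = 3.89e-04; 26.5% of genes called higher), with Col11a2 at 42.3 and 35.7.

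Col27a1 was the member seen in the most clusters, by a count that was not made for other genes. Its Poisson interval lay above that of the immune cells in both mice in 15 of the 28 clusters with cells of both. Among these is cluster 23, with 12 cells in mouse 2. The count was 7 for Col9a1 and Col11a2, 8 for Col2a1, Col9a2 and Col9a3, 11 for Col11a1 and 3 for Col10a1. In Schwann-like cluster 26 Col27a1 stood at 205 and 124 CPM (65 and 25 cells), a log2 difference from immune clusters of 2.11 ± 0.50 (edgeR, adjusted p = 0.00139; 12.7% of genes called higher). In the other Schwann-like cluster, 18, it stood at 127 and 63.9 CPM, with 1.46 ± 0.49 (adjusted p = 0.0215; 16.7% called higher). Pericyte or smooth muscle-like cluster 14 had 86.5 and 84.8 CPM, with 1.29 ± 0.46 (adjusted p = 0.027; 21.3% called higher), and fibroblast-like cluster 1 had 65.8 and 50.4 CPM, with 1.23 ± 0.43 (adjusted p = 0.0175; 26.4% called higher). Monocyte or dendritic-like cluster 24 (81 and 35 cells) had Col27a1 at 137 and 82.9 CPM, and 4 members were called higher than in the immune clusters there (5.66% of genes called higher): Col9a2 (2.06 ± 0.55), Col9a3 (2.21 ± 0.57), Col11a2 (1.51 ± 0.47) and Col27a1 (2.01 ± 0.47). With both mice added up, every chondrocyte marker was also higher in cluster 24 than in T or NK-like cells. Acan stood at 262 CPM against 48.6, Hapln1 at 98.0 against 17.3 and Snorc at 185 against 89.4. Cytl1 stood at 874 against 353 and Cnmd at 124 against 50.2. How far the members go with these markers was not tested. Col9a2 stood at 43.9 and 158 CPM there and Col9a3 at 82.9 and 146, so that both summed levels were lower in mouse 1. As means of single-cell CPM, Col9a3 was higher in mouse 1, at 209 against 59.3, and Col9a2 stood at 51.8 and 68.8. Few cells carried them: Col9a2 was detected in 8.64% and 8.57% of these cells, about the share in immune cells, 7.88% and 9.85%. Col9a3 was detected in 25.9% and 20%, beside 10.6% and 6.93% of immune cells. After thinning, Col9a2 was in 3.70% and 2.86%, beside 3.20% and 3.28%, and Col9a3 in 17.3% and 2.86%, beside 3.45% and 1.83%. In endothelial-like cluster 16 (116 and 113 cells) the intervals of Col2a1, at 297 and 308 CPM, and Col9a2, at 80.6 and 72.4, lay above those of the immune cells, but the differences missed the threshold (1.02 ± 0.51, edgeR, adjusted p = 0.156, and 1.36 ± 0.55, 0.0685). The 2 Schwann-like clusters held Col2a1 at 182 and 103 CPM in cluster 18 and at 240 and 97.4 in cluster 26, with log2 differences of -0.12 ± 0.57 and -0.02 ± 0.60.

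In some classes the 2 mice disagreed. Skeletal muscle-like cells (cluster 22; Acta1, Ckm, Myh4) had Col2a1 at 1277 CPM in mouse 1, in 102 cells, and at 82.5 in mouse 2, in 21 cells. Col9a1, Col9a2, Col9a3, Col10a1, Col11a2 and Col27a1 had a count of 0 in mouse 2, where 3 UMIs are 24.7 CPM, and Col9a2 had 279 CPM and Col11a1 470 in mouse 1. Of the 8 members, 7 were called above the immune clusters in this cluster (17.6% of genes called higher), and those calls rest on mouse 1. With both mice added up, every chondrocyte marker was also higher there than in T or NK-like cells. Acan stood at 294 CPM against 48.6, Hapln1 at 106 against 17.3 and Snorc at 263 against 89.4. Cytl1 stood at 1240 against 353 and Cnmd at 235 against 50.2. How far the members go with these markers was not tested. Basal epithelial-like cells also differed by mouse, with a smaller gap in Col2a1, at 503 CPM (interval 418 to 600) and 67.7 (43.35 to 101).

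Within cartilage the members did not keep 1 order. The 5 chondrocyte-like clusters differed in leading genes and depth: cluster 3 was led by Mgp, Cnmd and Omd, cluster 5 by Il11, Zfp385b and F13a1, cluster 6 by Cytl1, Acan and Snorc with Fgfr3 and A2m, and cluster 8 by Bmp2, Dapl1 and Sfn. Cluster 12 was led by Snorc, Chad and Cytl1 besides D130009I18Rik and Sfn, and held shallow cells (median 1355 UMIs, against 13050.5 in cluster 6). Cluster 5 held 1710 cells of mouse 1 and 104 of mouse 2. Unnamed cluster 11 (346 and 256 cells) carried the chondrocyte markers but had Ibsp, a bone marker, among its leading genes. With both mice added up, Ibsp stood at 725 CPM there, against 503 in cluster 5, 350 in cluster 3 and 368 in cluster 9. The other bone markers of the list were low in cluster 11: Bglap 3.98, Bglap2 3.58, Sp7 6.96 and Dmp1 0 CPM. Against the immune clusters all 8 members were called higher in cluster 11 (29.7% of genes called higher). Against the chondrocyte-like clusters its log2 differences ran from -0.73 ± 0.37 for Col27a1 (edgeR, adjusted p = 0.143) to 0.18 ± 0.33 for Col9a1.

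Col2a1 was highest in cluster 5, at 9257 and 11873 CPM, followed by cluster 3 at 5616 and 8256 and cluster 11 at 4628 and 6165, whose values overlap. Cluster 12 had 4286 and 4018 CPM. Cluster 6, at 2087 and 3877, and cluster 8, at 2159 and 2772, had the lowest levels and overlapped each other. The range of Col2a1 over the chondrocyte-like clusters was thus wide in each mouse, and in cluster 6 the mice were farther apart than in cluster 12.

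Col9a1 stood at 569 and 628 CPM in cluster 5, at 527 and 602 in cluster 3 and at 193 and 247 in cluster 6. Cluster 6 was the lowest chondrocyte-like cluster for this chain, in both mice. Its partner Col9a2 stood at 1100 and 1169 CPM in cluster 5 and at 1092 and 1154 in cluster 6, which overlap, and Col9a3 at 1074 and 1055 against 852 and 988. Cluster 8 had the lowest Col9a3 of the chondrocyte-like clusters, 391 and 467 CPM, while its Col9a1, 386 and 523, lay above that of clusters 6 and 12.

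Col11a1 stood at 2164 and 2530 CPM in cluster 5, and between 938 and 1661 in the other chondrocyte-like clusters. Col11a2 stood at 1632 and 1823 in cluster 5, at 1469 and 1533 in cluster 3, and between 714.5 and 866 in clusters 6, 8 and 12, which overlap. Col27a1 had another order, with cluster 6 first, at 1477 and 1337 CPM, cluster 5 next, at 1249 and 1196, and cluster 12 last, at 705 and 816.

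**Figure D2:**
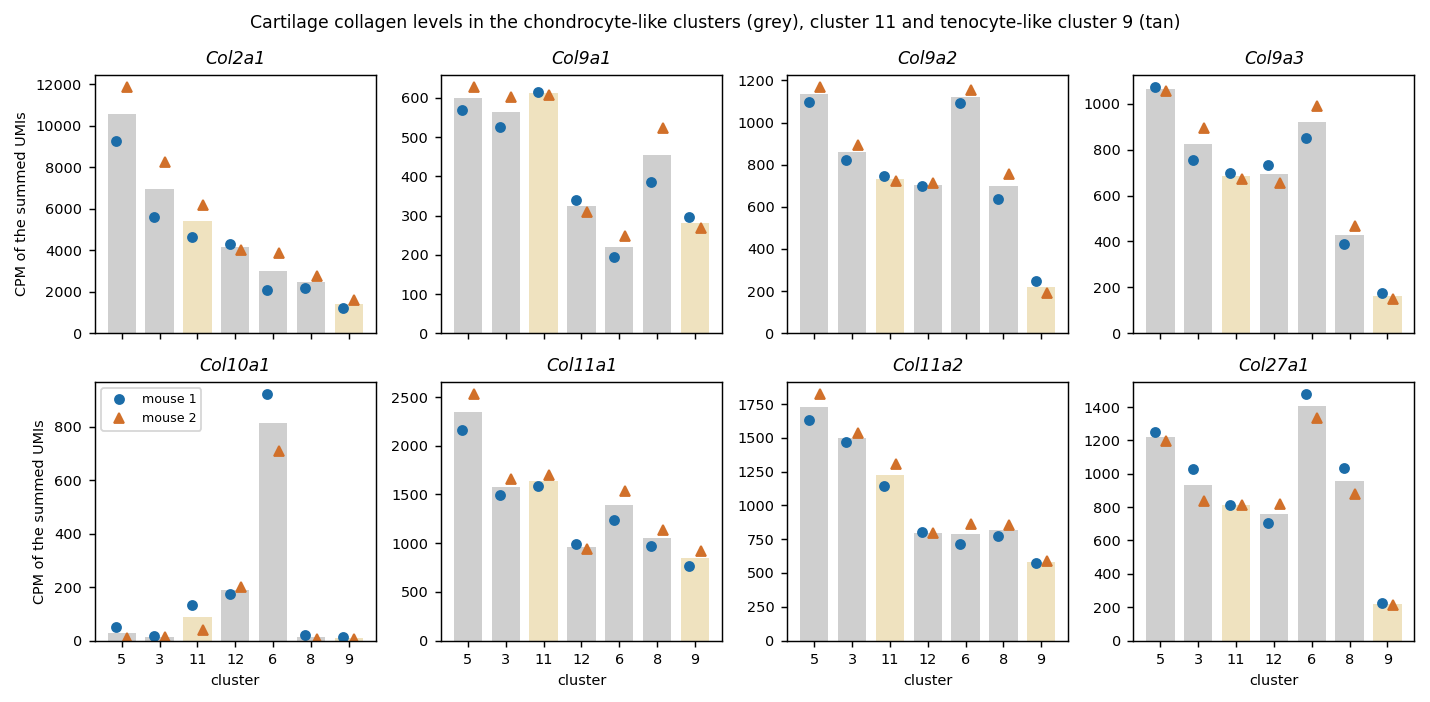
Level of each member in the 5 chondrocyte-like clusters, cluster 11 and tenocyte-like cluster 9, in CPM; bars are means of the 2 mice, circles mouse 1 and triangles mouse 2. Cluster 5 is highest for Col2a1 and Col11a1, and Col10a1 is highest in cluster 6, at 923 and 709 CPM. Cluster 12 follows for Col10a1, at 174 and 202, beside 177 and 176 in free RNA.

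Col10a1 differed most. It stood at 923 CPM in cluster 6 of mouse 1 and at 709 in mouse 2, at 174 and 202 in cluster 12, at 134.5 and 38.7 in cluster 11 and at 49.98 and 9.86 in cluster 5. Clusters 3 and 8 had 15.4 and 12.9 CPM and 21.5 and 6.34 CPM, near the immune cells (9.12 and 6.27). Cluster 6 held 83.9% and 95.6% of all Col10a1 UMIs in cells. Of its cells 60.6% and 50.6% had a Col10a1 UMI, or 35.6% and 23.8% after thinning, and 217 of 810 and 222 of 950 had at least 10 such UMIs. Cluster 12 counted only 86 and 43 Col10a1 UMIs, and 2 and 0 cells with 10 or more. Free RNA had Col10a1 at 177 and 176 CPM, about the level of this shallow cluster. The part of free RNA in the level of cluster 12 was not tested.

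Each chondrocyte-like cluster was set against the mean of the other 4 in the edgeR fit over 25 clusters and 8004 genes. Of 40 such differences of members 5 were called, all of them of Col10a1. Cluster 6 had a log2 difference of 4.84 ± 0.23 (edgeR, adjusted p = 6.91e-22), where 3.94% of genes were called higher. Cluster 12 had 1.92 ± 0.31 (edgeR, adjusted p = 5.96e-05; 1.01% called higher). Col10a1 was lower in cluster 3, by -2.64 ± 0.33 (0.987% called lower), in cluster 8, by -2.90 ± 0.35 (0.537% called lower), and in cluster 5, by -1.22 ± 0.32 (0.275% called lower). Both mice gave each of these directions, but the sizes differed: from mouse 1 and mouse 2 alone they were 4.44 and 5.03 in cluster 6, 1.44 and 2.77 in cluster 12, -2.83 and -2.06 in cluster 3, -2.26 and -3.22 in cluster 8, and -0.79 and -2.51 in cluster 5. The calls in clusters 5 and 12 were lost when the 5 chondrocyte-like clusters were fitted alone (edgeR, adjusted p = 0.332 and 0.224), and both were lost among cells of at least 2000 UMIs (0.129 and 0.506). Without the 387 shared barcodes 10 of the 40 were called (share of all genes not counted), the same 5 and 5 others. Those were Col2a1 (1.53 with and 1.61 without these barcodes; edgeR, adjusted p = 0.0699 and 0.0271), Col11a1 (1.01 and 1.08; 0.282 and 0.0492) and Col11a2 (0.95 and 1.01; 0.18 and 0.0208) in cluster 5, and Col9a1 (-0.94 and -0.92; 0.147 and 0.0325) and Col27a1 (0.71 and 0.77; 0.271 and 0.0474) in cluster 6.

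That fit, chosen after the data had been seen, does not share its estimate of spread with muscle, immune and other clusters, where these genes have few UMIs. It called 29 of the 40 differences over 8965 genes. Cluster 5 was higher in the 7 members other than Col10a1 (6.53% of genes called higher), with Col2a1 at 1.53 ± 0.13 (edgeR, adjusted p = 4.24e-08), Col11a1 at 1.00 ± 0.10 and Col11a2 at 0.94 ± 0.10. With all clusters fitted, the same Col2a1 difference was 1.53 ± 0.43 (edgeR, adjusted p = 0.0699). Since cluster 5 has 104 cells in mouse 2, its level rests mainly on mouse 1, yet both mice gave the same direction, 1.52 and 1.45 for Col2a1.

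Cluster 6 split the members in that fit, where 13.1% of all genes were called higher and 6.13% lower. Col2a1 (-0.72 ± 0.15; edgeR, adjusted p = 0.0012), Col9a1 (-0.98 ± 0.12; 3.52e-09) and Col11a2 (-0.40 ± 0.11; 0.00527) were lower. Col9a2 (0.57 ± 0.10), Col9a3 (0.49 ± 0.11), Col27a1 (0.70 ± 0.10) and Col10a1 (4.77 ± 0.30; edgeR, adjusted p = 5.66e-04) were higher, and Col11a1 had 0.12 ± 0.11. The largest of these chain differences apart from Col10a1, that of Col9a1, had an adjusted p of 0.147 in edgeR when all 25 clusters were fitted.

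In cluster 8, 6 members were lower in that fit (3.56% of genes called lower), led after Col10a1 by Col2a1, -1.21 ± 0.15, and Col9a3, -1.08 ± 0.12, while Col9a1 had 0.13 ± 0.11. Cluster 3 had more Col2a1 (0.66 ± 0.13), Col9a1 (0.55 ± 0.11) and Col11a2 (0.59 ± 0.10) (5.51% of genes called higher) and less Col10a1 (4.80% called lower). Cluster 12 had less of Col9a1, Col9a2, Col11a1, Col11a2 and Col27a1, between -0.45 and -0.74 (3.13% called lower). Depth moves with these contrasts, as cluster 12 is the shallowest and cluster 6 the deepest, and its part in the result was not tested.

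**Figure D3:**
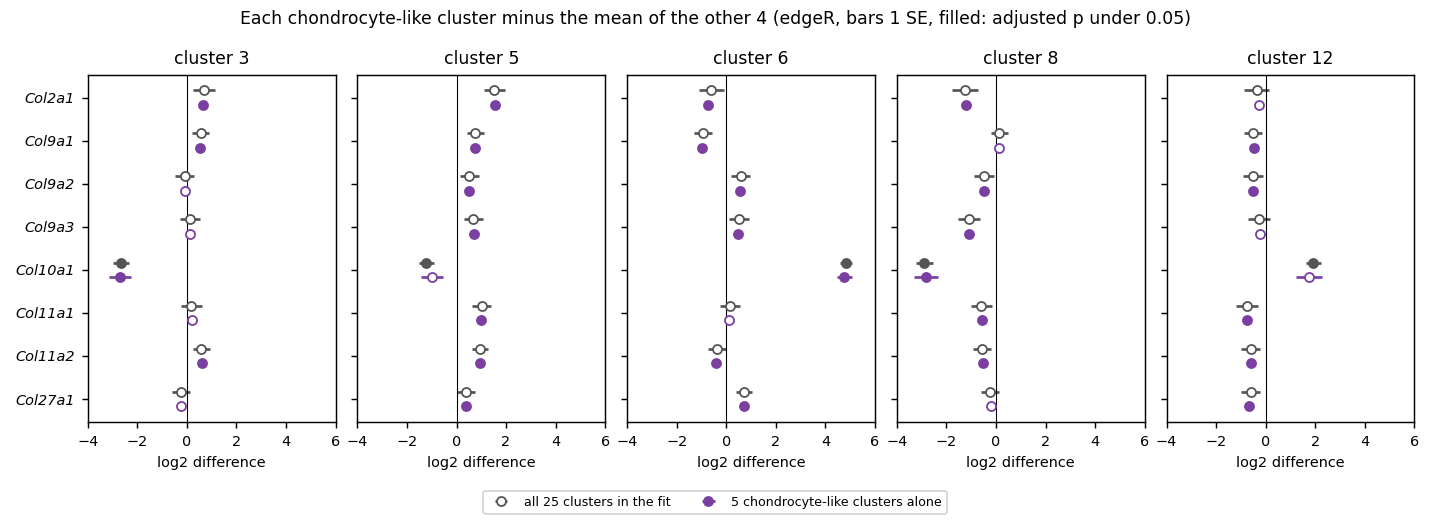
Log2 difference of each member between 1 chondrocyte-like cluster and the mean of the other 4, with 1 SE, from the fit over 25 clusters (grey) and from the 5 clusters alone (purple); filled points have an adjusted p under 0.05. Estimates are close in both fits, and in the fit over 25 clusters only Col10a1 is filled.

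The 3 chains of collagen IX, which form a trimer of 1 chain each in cartilage, did not keep a fixed ratio of counts. These shares compare the same genes between clusters and do not say which chain is more abundant, since counts were not set against transcript length. Col9a1 made up 9.05% of the UMIs of the 3 genes in cluster 6 of mouse 1 and 10.3% in mouse 2. In cluster 3 its share was 25.03% and 25.2%, in cluster 5 20.7% and 22.02%, and in cluster 8 27.3% and 29.9%. The tenocyte-like cluster had the highest share, 41.2% and 44.0%. The 2 mice agreed closely in each of these clusters, and cluster 6 lay below the other 4 in both.

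Col9a3 had its lowest share among the chondrocyte-like clusters in cluster 8, 27.6% and 26.7%, against 39.9% and 41.4% in cluster 6. For collagen XI, Col11a1 made up 63.5% and 63.9% of the UMIs of Col11a1 and Col11a2 in cluster 6, 57.0% and 58.1% in cluster 5 and 50.4% and 52.0% in cluster 3. The spread between clusters was larger than that between mice for both collagens. No test was made of these ratios.

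**Figure D4:**
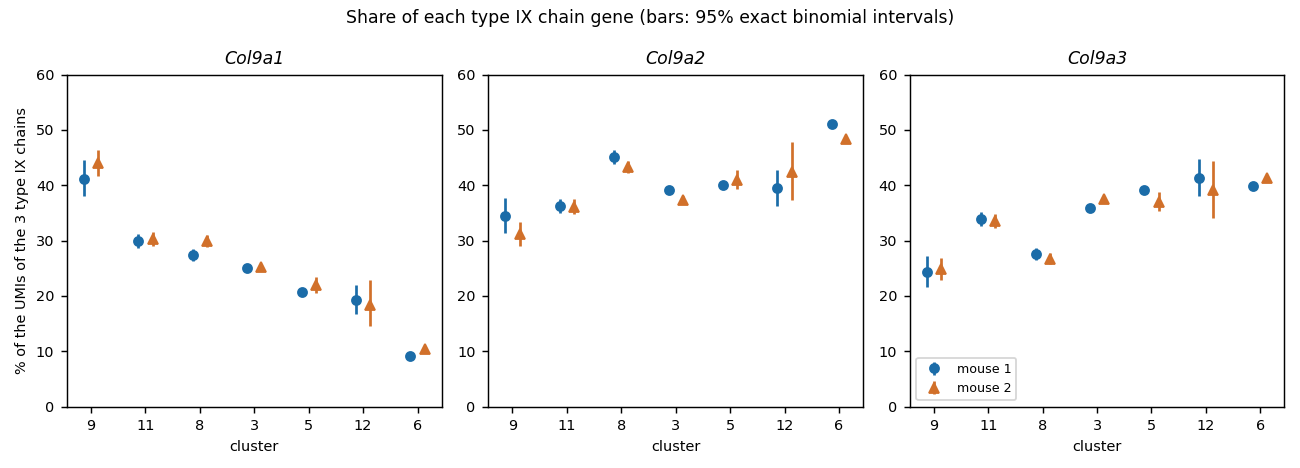
Share of each collagen IX gene in the UMIs of Col9a1, Col9a2 and Col9a3, in percent, by cluster; circles are mouse 1, triangles mouse 2, and bars 95% exact binomial intervals. Col9a1 is at 9.05% and 10.3% in cluster 6 and at 41.2% and 44.0% in tenocyte-like cluster 9.

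Cells of cluster 6 were then ordered by their own Col10a1 UMIs, as a description without a test. In mouse 1, Col2a1 stood at 3108 CPM in the 319 cells with 0 Col10a1 UMIs, at 2018 with 1 to 9, at 1025 with 10 to 49 and at 640 in the 36 cells with 50 or more. In mouse 2 the values were 5899, 3255, 1530 and 944 CPM, over 469, 259, 151 and 71 cells. Col2a1 was thus lower at each step in both mice, and the gap between the mice narrowed.

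Col9a1 went from 279 to 39.4 CPM between the first and last of these bins in mouse 1 and from 353 to 45.2 in mouse 2. Col11a2 went from 942 to 325 and from 1064 to 420. Col11a1 went from 1318 to 1159 and from 1593 to 1463, Col9a3 from 836 to 764 and from 1040 to 795, and Col9a2 from 1052 to 823 and from 1264 to 914. Col27a1 was higher in the last bin than in the first, 1903 against 1394 CPM and 1673 against 1258; in mouse 1 it was 1388 in cells with 1 to 9 Col10a1 UMIs, no higher than in those with 0. Cells with more Col10a1 were also deeper, with medians of 10063 UMIs in the first bin and 14467 in the last in mouse 1, and 13970 and 21366 in mouse 2; the part of depth was not tested.

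**Figure D5:**
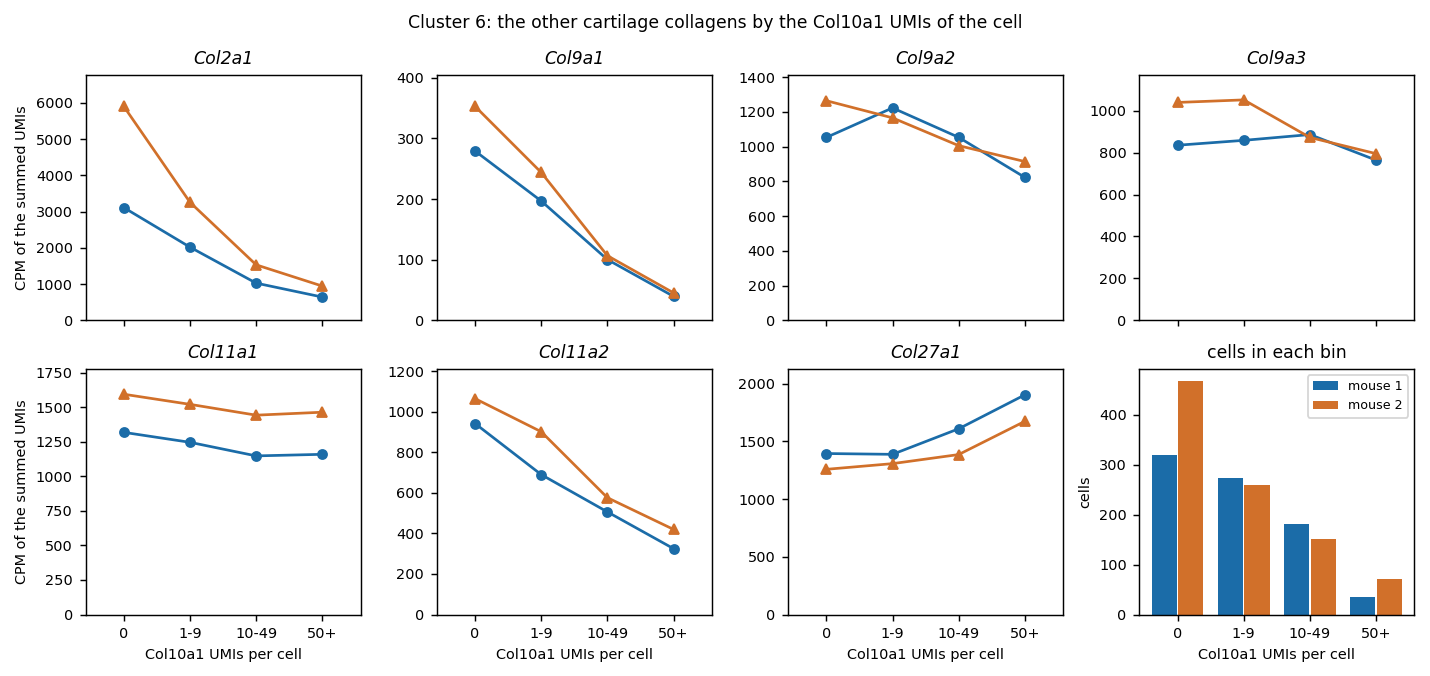
Cluster 6 cells grouped by their number of Col10a1 UMIs: level of the 7 other members, in CPM of the UMIs of each bin, and the number of cells; circles and triangles are mouse 1 and mouse 2. Col2a1 goes from 3108 to 640 CPM in mouse 1 and from 5899 to 944 in mouse 2, and Col11a1 stays between 1147 and 1593.

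Col10a1 has a further limit, since it lies inside another gene. In the GENCODE M21 annotation (GRCm38) it is contained in Nt5dc1, a gene for a protein of the 5′-nucleotidase domain family, on the opposite strand. Nt5dc1 was the gene with the pattern most like that of Col10a1 over the 50 sums per mouse and cluster (Pearson r = 0.92 among 7893 genes compared, as a description), ahead of A2m (0.85) and Dab1 (0.75). In cluster 6 Nt5dc1 stood at 962 and 735 CPM, close to Col10a1 itself. Cell by cell in cluster 6, Col10a1 had 8189 UMIs and Nt5dc1 8534 in mouse 1, with r = 0.976 over 810 cells, and 10908 against 11307 in mouse 2, with r = 0.986 over 950. The counts were the same in only 9.22% and 6.76% of the cells with at least 10 Col10a1 UMIs. As the sources used here do not say whether counting used strand, the molecules of the 2 genes cannot be told apart, and the level of Col10a1 is uncertain to that extent. Col9a3 shares sequence with Tcfl5 on the opposite strand, but Tcfl5 had 259 and 416 UMIs in cluster 6 against 7558 and 15212 of Col9a3.

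The other members resembled one another and the cartilage markers over the same 50 sums, which share libraries and depth. The highest r between 2 members was that of Col9a2 and Col9a3, 0.98, and the lowest without Col10a1 that of Col9a3 and Col11a1, 0.90; those with Col10a1 ran from 0.55 to 0.67. The 3 genes most like Col2a1 were Cnmd (0.98), Ucma (0.97) and Mia (0.97), and those most like Col9a1 were Ucma, Cnmd and Mia. Snorc, Cnmd and Cytl1 were most like Col9a2, Snorc, Cnmd and Ucma most like Col9a3, and Cnmd, Mia and Ucma most like Col11a2. Col11a1 differed, with Nrk (0.95), Wif1 (0.95) and Hapln1 (0.94), and so did Col27a1, with Sdk2 (0.94), Mia (0.94) and Acan (0.93). Cnmd, Snorc, Cytl1, Hapln1 and Acan are markers that named the class, so their likeness follows in part from that choice.

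Genes that act on these collagens were compared between chondrocyte-like and fibroblast-like cells in the class fit, where 14.6% of the 6588 tested genes were higher, 13.8% lower, and the median log2 difference was -0.03. Of 8 tested regulators of cartilage collagen transcription 6 were higher and 0 lower with edgeR, with a median of 3.03; 0 were lower at an unadjusted p under 0.05 or with DESeq2. Sox9, the factor that activates Col2a1 and other cartilage genes, stood at 1566 and 1300 CPM in chondrocyte-like cells against 110 and 59.2 in fibroblast-like cells, a log2 difference of 4.47 ± 0.77 (edgeR, adjusted p = 3.08e-05). Its partners Sox6 (5.07 ± 0.54) and Sox5 (3.29 ± 0.56) were higher too, as was Runx2 (3.09 ± 0.44), which is known to drive hypertrophy and to act on Col10a1. Within cartilage Runx2 was not highest where Col10a1 was. Runx2 stood at 73.6 and 75.95 CPM in cluster 6, where Col10a1 was highest, at 128 and 125 in cluster 3 and at 228 and 169 in cluster 5. In cluster 12 it stood at 86.9 and 46.9. Cluster 8, at 51.9 and 43.7, had less of both genes than cluster 6. Whether the 2 genes go together was not tested. Ihh, a signal of prehypertrophic chondrocytes, had 0 CPM in cluster 6 of both mice, and Mmp13, a collagenase of late hypertrophy, 0.11 and 0.71. Ihh and Mmp13 were named outside the rule for named genes.

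Partners in the fibril parted: 4 of 8 tested were higher and 4 lower, with a median of -0.04. Comp (5.21 ± 0.63) and Matn3 (4.48 ± 0.46), which bridge collagen fibrils in cartilage, were higher, while Col14a1 (-6.06 ± 0.56), a fibril-associated collagen of soft connective tissue, and Col5a3 (-5.39 ± 0.46) were lower. Of 20 tested genes for chain modification and folding 4 were higher, P3h2 (2.93 ± 0.47), Plod2 (2.64 ± 0.46), Creb3l2 (2.11 ± 0.40) and Colgalt2 (1.64 ± 0.35), and 1, Fkbp7, named after its value had been seen, was lower, with a median of 0.07. P3h2 hydroxylates prolines of the chains, Plod2 lysines of the chain ends, and Creb3l2 is a transcription factor of the secretory pathway in chondrocytes. Of 8 tested genes for secretion of large cargo 0 were called in either direction with edgeR, 0 had an unadjusted p under 0.05, and DESeq2 called 1 lower.

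Genes that trim and cross-link collagens also parted, with 5 of 12 tested higher and 5 lower and a median of -0.49. Tll1 (4.47 ± 0.44) was higher and Bmp1 (-3.09 ± 0.47) lower, both of them proteinases that remove C-propeptides. Among the N-propeptide proteinases, Adamts3 was higher, at 63.7 and 48.7 CPM against 11.5 and 9.09 (2.68 ± 0.38), and Adamts2 lower, at 37.4 and 25.8 against 398 and 428 (-3.54 ± 0.64). Adamts3 was named after its values had been seen; it is known for cutting procollagen II, and Adamts2 for cutting procollagen I. Loxl4, a lysyl oxidase, was higher (4.23 ± 0.48).

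Of 6 tested genes for breakdown of cartilage collagen 2 were lower, Mmp2 (-3.15 ± 0.62) and Mmp14 (-2.55 ± 0.63), with a median of -0.74. With edgeR 0 were higher, also at an unadjusted p under 0.05, and DESeq2 called 0 higher. Of 7 receptors 3 were higher and 3 lower, with a median of 0.11. Itga10, which with Itgb1 forms a collagen II receptor of chondrocytes, was higher (3.34 ± 0.39), as was Ddr1 (1.60 ± 0.39). Itga2 (-3.00 ± 0.45) and Ddr2 (-1.23 ± 0.45), a receptor tyrosine kinase for fibrillar collagens, were lower.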

How the data were processed

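Counts of each gene in each barcode were deposited for 2 libraries, not normalized, and were taken as UMI counts. Cell Ranger 7.0.0, STAR (no version) and GRCm39 are named per the submitters' processing notes, without roles; annotation and use of strand are not given in the sources used here. Members and gene lists were chosen with earlier results of these data known.

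Totals were 95844802 and 86049057 UMIs. Scrublet in scanpy 1.11.5 called 0 doublets in both mice, so the highest scores were removed at 0.8% per 1000 cells (1599 and 750). Cells were clustered on 27451 genes, with the members and all lists among 29502 held out, which lessens but does not remove the dependence of tests on clusters from the same cells (2000 variable genes, 30 components, 15 neighbours, leidenalg 0.10.2 at resolution 1). A class was named where the mean log2(CPM + 10) of its 5 markers was at least 1.5 above the median of other clusters and led by 0.25, with 3 markers in 10% of cells, leading genes not of another class, and cells of both mice; these thresholds were set after the clusters were seen. Naming left 7 clusters unnamed, with 15.5% and 11.8% of cells.

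Sums per mouse and group (at least 20 cells in each mouse; 26 sums of 13 classes, 50 of 25 clusters) were fitted with edgeR 4.0.16 in R 4.3.3 (TMM, filterByExpr, robust quasi-likelihood), the mouse as a block since groups of a mouse come from 1 animal: the mouse difference of chondrocyte-like and fibroblast-like sums correlated over 3204 genes (r = 0.583). Adjusted p-values cover the tested held-out genes, with 0.05 as threshold. Shares have exact binomial and levels exact Poisson 95% intervals. The code was tested on simulated data. Named genes are the members, per list up to 4 called genes with the largest change, and per member the 3 genes of highest r on log2(CPM + 10) among genes of at least 50 CPM in a cluster of both mice. Ihh, Mmp13, Fkbp7 and Adamts3 are among the genes named outside this rule. Promoters are from RefSeq (GRCm38.p6). DESeq2 1.42.0 was an alternative.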

Additional observations from a re-analysis of the deposited data

How the results depend on the processing

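All 8 members were highest in chondrocyte-like cells of both mice under each of the 5 alternatives for levels (2000 UMIs, mean of single-cell CPM, free RNA subtracted, resolutions 0.5 and 2). All 8 differences from fibroblast-like cells stayed positive and called under every tested alternative; leaving out a mouse gives a value without a test, and the same doublet rate in both mice is the main setting itself. The number of all genes called there was 1871; it was 1431 with no replicate block, 3142 without a filter on low counts, 6274 with only the 2 classes in the fit and 2912 at resolution 0.5. Among the chondrocyte-like clusters, 5 of 40 member differences were called, all of Col10a1, and 4 with no replicate block, where cluster 5 lost its call (edgeR, adjusted p = 0.419); 9 were called without a filter, 10 at 2000 UMIs, 10 without barcodes shared by the mice and 29 in the fit of the 5 clusters alone. The causes were not tested. For the settings with 4, 9 and 10 calls the share of all genes called was not counted. Small differences that were not called turned sign: Col9a2 in cluster 3 was 0.030 without a filter, 0.049 with cluster 11 counted as chondrocyte-like and 0.042 without cluster 5, and Col2a1 in cluster 12 was 0.014 without cluster 5. With 1 mouse left out, Col11a1 in cluster 6 ran from -0.098 to 0.077, Col2a1 in cluster 12 from -0.50 to 0.13 and Col9a3 in cluster 12 from -0.31 to 0.021. The alternatives with shared barcodes, cluster 5, cluster 11 and the 5 clusters alone were chosen after seeing the data. Depth limits cluster 12, and cell number limits skeletal muscle-like and B-like cells.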
